A study of Mus musculus with 6 samples.

Results

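The small leucine-rich proteoglycans are secreted matrix proteins built around a curved stack of leucine-rich repeats, and this account follows 10 of their genes, Dcn, Bgn, Aspn, Fmod, Lum, Prelp, Kera, Omd, Epyc and Ogn. They were taken by gene symbol from a table of 25491 mouse genes, and each symbol matched exactly 1 row. RNA came from mesenchymal progenitors of mouse bone marrow, stromal cells that can form bone, cartilage and fat, sorted as CD45-, TER119-, CD31-, CD44-, SCA1- and CD51+. All mice were C57BL/6J, 14 weeks old and taken 6 weeks after a sublethal radiation dose of 7 Gy. One group of 3 libraries was wild type and the other group of 3 was Lama4-/- for the gene of the laminin alpha 4 chain, a part of basement membranes. There were no unirradiated samples among them, so each value below describes marrow recovering from radiation. The sorted cells are described as coming from 3 mice of each genotype, but no label ties a library to its own animal, and the spread behind each p-value could therefore be partly technical.

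Members of the family bind the surface of collagen fibrils and set how thick and how regular those fibrils become, and several also hold growth factors such as TGF-beta in the matrix. Class I holds decorin (Dcn) and biglycan (Bgn), which carry chondroitin or dermatan sulfate chains, and asporin (Aspn), which has an aspartate-rich end in their place. Class II holds fibromodulin (Fmod), lumican (Lum), keratocan (Kera) and osteomodulin (Omd), which can carry keratan sulfate, and Prelp, whose basic end binds heparan sulfate such as that of perlecan in basement membranes. Class III holds epiphycan (Epyc), a cartilage proteoglycan, and osteoglycin (Ogn). In bone the family is known from cartilage, tendon, periosteum and osteoid, and in cornea from its transparent collagen.

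9 of the 10 genes lie in 3 groups of neighbours with no other annotated protein-coding gene between them, on GRCm38. Prelp (chromosome 1, 133910304 to 133921414, minus strand) and Fmod (chromosome 1, 134037254 to 134048277, plus strand) are read away from each other, with start sites 116 kb apart, and Optc lies beside Prelp. Dcn, Lum, Kera and Epyc stand in a row on chromosome 10 between 97479609 and 97682454, all on the plus strand and 58.4 Mb from Lama4, which is on the same chromosome. Ecm2, Aspn, Omd and Ogn stand in a row on chromosome 13 between 49504810 and 49624501, all on the plus strand. Bgn is alone on the X chromosome (73483602 to 73495933, plus strand). Without strand information, reads from overlapping genes on opposite strands cannot be told apart. This touches Prelp, which shares 350 exon bases (9.68% of its own) with the antisense gene Gm15851 (at most 0.200 CPM on average in either group). It also touches Epyc, which shares 1041 (40.6%) with Gm10754 (at most 0.314 CPM), and Aspn, which shares 7 with Cenpp. How reads in shared bases were counted was not found, so low partner levels do not show that these members were unaffected.

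The bases upstream of the start site are shown for 2 neighbouring pairs, because the first pair (Prelp and Fmod) had levels that went up and down together across the libraries and the second (Omd and Ogn) had levels that went opposite ways. The sequences are from RefSeq on GRCm38.p6, where 8 of the 10 members had an entry. Each line gives 250 bases, 5′ to 3′ on the gene's own strand and ending at the base before the start. Capitals mark TATAAA on the gene's strand or, on either strand, the RUNX core TGTGGT and the SOX core ACAATG, motifs that do not overlap each other here.
Prelp, chr1:133921402-133921651: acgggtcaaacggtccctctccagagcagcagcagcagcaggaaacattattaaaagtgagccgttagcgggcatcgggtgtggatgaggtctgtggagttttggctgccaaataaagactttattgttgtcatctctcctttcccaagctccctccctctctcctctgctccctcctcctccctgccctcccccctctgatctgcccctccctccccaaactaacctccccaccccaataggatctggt
Fmod, chr1:134037004-134037253: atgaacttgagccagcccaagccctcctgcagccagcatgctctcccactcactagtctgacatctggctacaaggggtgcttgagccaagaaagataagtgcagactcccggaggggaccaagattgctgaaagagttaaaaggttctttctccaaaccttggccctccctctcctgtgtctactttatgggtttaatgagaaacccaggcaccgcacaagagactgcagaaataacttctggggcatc
Omd, chr13:49582212-49582461: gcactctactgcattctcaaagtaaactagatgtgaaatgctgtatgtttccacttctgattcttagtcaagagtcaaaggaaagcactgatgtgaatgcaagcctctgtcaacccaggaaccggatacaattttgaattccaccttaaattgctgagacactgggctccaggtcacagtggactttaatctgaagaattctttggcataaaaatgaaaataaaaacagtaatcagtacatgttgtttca
Ogn, chr13:49607765-49608014: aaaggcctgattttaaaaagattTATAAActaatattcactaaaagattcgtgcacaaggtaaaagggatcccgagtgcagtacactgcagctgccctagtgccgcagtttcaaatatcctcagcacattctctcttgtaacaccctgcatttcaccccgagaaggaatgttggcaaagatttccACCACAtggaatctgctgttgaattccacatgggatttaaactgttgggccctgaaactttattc
Only the Ogn window of these 4 held a match, TATAAA starting 227 bases before the start and the RUNX core (as ACCACA) 65 bases before it. Of 32851 RefSeq promoter windows of the same length, 7.59% held TATAAA, 14.0% the RUNX core and 10.7% the SOX core. The windows differed in base composition, with G and C making up 55.6% of the Prelp window, 51.2% of Fmod, 38.4% of Omd and 42.0% of Ogn. These matches are descriptions of letters and not of bound factors.

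The libraries held 6263830 to 15663957 counts, with wild type replicate 2 the shallowest, and the 10 most abundant genes took 24.3% to 29.9% of a library. Lama4 itself, the check of the labels, had 607, 236 and 438 counts in the wild type libraries and 0 in each Lama4-/- library. Of the sort gate genes, Ptprc (CD45) reached at most 4.09 CPM and Pecam1 (CD31) at most 2.05. Itgav (CD51) ran from 95.9 to 139 CPM in wild type and from 44.5 to 73.0 in Lama4-/-. Cd44, gated as negative, ran from 70.6 to 152 CPM in wild type and from 53.2 to 82.0 in Lama4-/-. Cartilage genes were abundant in every library: the 9 chondrocyte markers, none of them at 0, summed to between 87571 and 136013 CPM in wild type and between 61208 and 118697 in Lama4-/-. The 7 osteoblast markers summed to 6071 to 8728 CPM in wild type and 6418 to 12530.3 in Lama4-/-. The 7 leukocyte markers summed to 33.7 to 89.0 CPM in wild type and 103 to 505 in Lama4-/-, most of it from S100a8, S100a9 and Lyz2. Ptprc, with at most 53 counts in a library, had a log2 fold change of -1.32 (95% interval -6.52 to 3.87). Elane (2.91) and Mpo (0.69) had positive values. The 6 red cell markers summed to 252 to 1665 CPM in wild type and 1349 to 3864 in Lama4-/-, with overlap. The 5 pericyte and smooth muscle markers summed to 631 to 966 CPM in wild type and 235 to 411 in Lama4-/-, mostly Cspg4, and the 6 fibroblast markers to 101 to 159 and 68.6 to 81.8 CPM, mostly Pdgfra. The 7 markers of CXCL12-abundant, LEPR-positive stroma summed to 5013 to 11447 CPM and 4565 to 7213 CPM. Acan, Sox9 and Col9a1 of 9 chondrocyte markers and Runx2 of 7 osteoblast markers had an edgeR unadjusted p under 0.05, all lower in Lama4-/-. That threshold was also reached by 3 of 5 pericyte, 1 of 5 tested fibroblast and 3 of 7 stroma markers, all lower in Lama4-/-. The 2 of 5 sort gate genes that reached it, Itgav and Cd44, were lower as well. It was reached by 3 of 6 tested leukocyte and 4 of 6 red cell markers, all higher in Lama4-/-. Of all tested genes, 12.8% reached it, and none of these markers passed the edgeR adjustment. DESeq2, which called 4.64% of genes, called some of them, Acan, Sox9 and Runx2 included. The 5 endothelial markers found in the table summed to at most 5.32 CPM. The part of other cells in the results below was not tested.

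The family's 10 members had between 84 and 83559 counts per library, and all 10 passed the filter on low counts and were tested. Together they took 1.35%, 1.58% and 1.88% of all counts in the wild type libraries and 1.37%, 1.60% and 1.36% in the Lama4-/- libraries, and the summed share overlapped between genotypes. By mean CPM, the counts scaled to a common library total, Fmod ranked 16 and Dcn 17 among all genes, followed by Bgn at 36, Prelp at 41 and Lum at 51. Kera, best known from the cornea, ranked lowest of the family at 2997, still above 79.3% of the 14465 tested genes. Ranked instead per kilobase of merged exons, Fmod was at 26, Dcn at 46, Lum at 53, Prelp at 63, Bgn at 88 and Kera at 1985.

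Levels can be compared between genes only per length, and per kilobase of merged exons the order over the 6 libraries was Fmod, Dcn, Lum, Prelp, Bgn, Epyc, Omd, Ogn, Aspn and Kera. Fmod led at 1292 ± 522 CPM per kb (SD, n = 6) and Dcn followed at 731 ± 181. Lum was at 641 ± 154, Prelp at 520.1 ± 258 and Bgn at 389 ± 48.7. The neighbours Dcn and Lum, Lum and Prelp, and Prelp and Bgn each differed by less than the SD of the more variable gene. Bgn stood above Epyc in 6 of 6 libraries. Epyc was at 159 ± 45.9 and Omd at 114 ± 31.2 CPM per kb, again within that spread, while Ogn (68.2 ± 22.8), Aspn (41.8 ± 10.1) and Kera (20.95 ± 15.95) each differed from the gene above by more than it. The upper part of this order differed between genotypes. By group mean, wild type ran Fmod (1582 CPM per kb), Prelp (709), Dcn (656), Lum (561) and Bgn (424), and Lama4-/- ran Fmod (1002), Dcn (806), Lum (721), Bgn (354) and Prelp (331). Fmod stood above Dcn in 4 of 6 libraries: in Lama4-/- replicates 1 and 3 Dcn was higher, at 859 and 869 against 778 and 746 CPM per kb, and in replicate 3 Lum was higher than both at 934. The place of Bgn depends on the length used: per kilobase of the longest annotated transcript it was at 890 CPM and the third, beside Dcn at 909.

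No family member passed the adjustment in the comparison of Lama4-/- with wild type (edgeR quasi-likelihood test, Benjamini-Hochberg over all tested genes, adjusted p from 0.295 to 0.977). In that test 0.00691% of all tested genes passed, which was 1 gene, Lama4. Its edgeR adjusted p was only 0.0497, although it had 0 counts in each Lama4-/- library, so smaller differences may go uncalled. DESeq2, which called 4.64% of genes, called 1 member. At an unadjusted p under 0.05 there was 1 member, Prelp, where 12.8% of all tested genes reached that threshold, 8.34% lower and 4.45% higher in Lama4-/-. That split of 1207 lower and 644 higher genes depended on the scaling and was 967 and 988 with upper-quartile scaling, and 460 and 700 with the trend with transcript length removed. 6 members had a negative and 4 a positive log2 fold change, with a median of -0.17 against -0.04 over all tested genes, of which 52% were negative and 48% positive. The members did not move as a block: Prelp, Fmod and Ogn had the most negative values and Omd, Lum and Dcn the most positive. In bulk RNA, fewer cells of a type and less RNA per cell cannot be told apart.

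**Figure D1:**
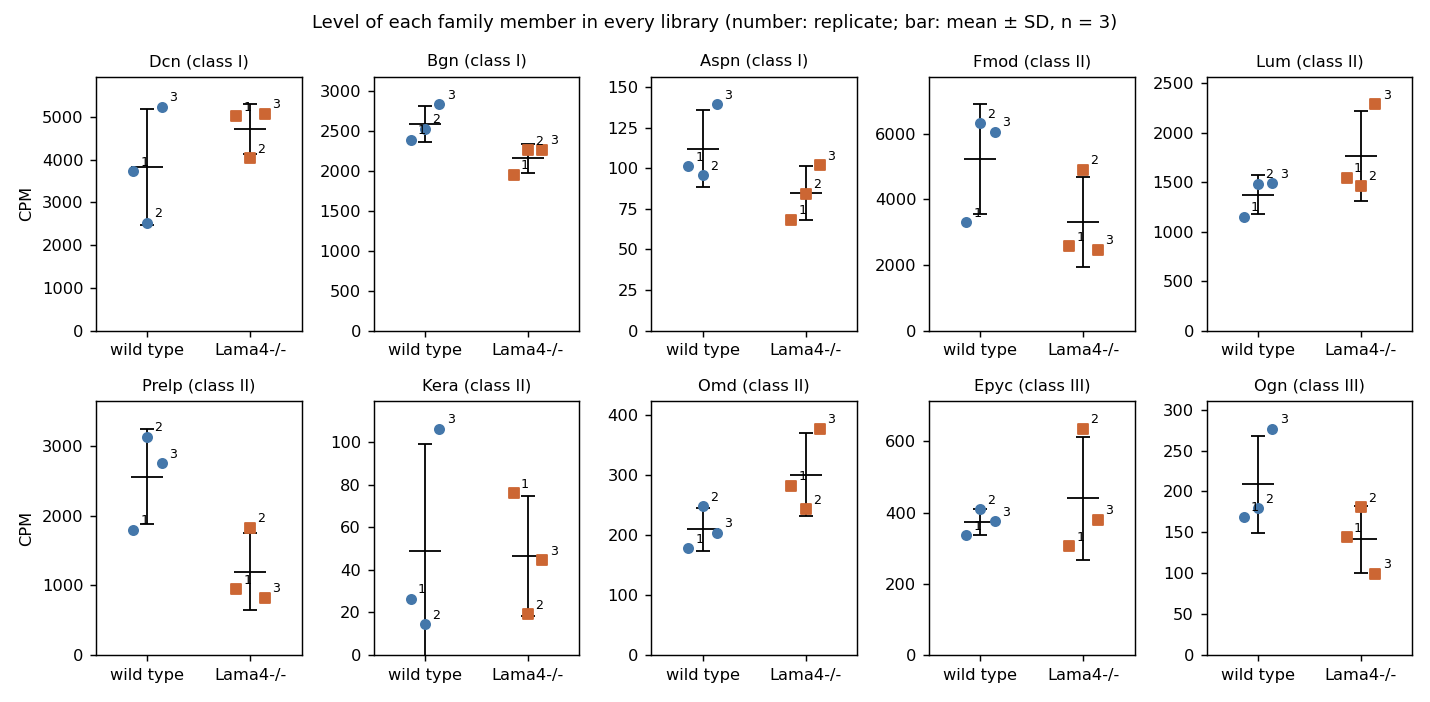
CPM of each of the 10 family members (vertical axes, each from 0) in the 3 wild type (circles) and 3 Lama4-/- (squares) libraries, numbered by replicate, with the mean and SD (n = 3) as bars. Prelp is lower in Lama4-/- replicates 1 and 3 than in any wild type library, Omd is highest in Lama4-/- replicate 3, and Kera spreads most within a genotype; its wild type SD bar runs past 0.

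Among class II, Prelp, which links matrix to heparan sulfate, showed the largest difference of the family. It was at 1800 (replicate 1), 3134 and 2755 CPM in wild type, and at 942, 1828 and 821 CPM in Lama4-/-. Replicate 2 of Lama4-/- sat just above replicate 1 of wild type, so the groups overlapped by that pair alone. The mean was 2563 ± 688 CPM in wild type and 1197 ± 549.9 in Lama4-/- (SD, n = 3), a log2 fold change of -1.10 (SE 0.36, 95% interval -1.94 to -0.26), with an unadjusted p of 0.0174 and an adjusted p of 0.295 in edgeR. The call depended on the tool: the adjusted p was 0.0470 with DESeq2, where 4.64% of genes with an adjusted p were called. The authors' deposited table lists 0.0378 for Prelp, in a table where 6.63% of such genes are called. With any of wild type replicate 2, Lama4-/- replicate 1 or Lama4-/- replicate 3 left out, the unadjusted p of Prelp rose above 0.05 (0.0620, 0.0576 and 0.0531) and the log2 fold change was -0.93, -0.94 and -0.89. Without Lama4-/- replicate 2 it was -1.54, with an edgeR unadjusted p of 0.00154.

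Fmod, which binds collagen and shapes fibrils in tendon and cartilage, had the highest mean level per length of the family. Its levels were 3303, 6325 and 6059.8 CPM in wild type and 2572, 4904 and 2466 CPM in Lama4-/-. Lama4-/- replicates 1 and 3 were below all wild type libraries and replicate 2 was above wild type replicate 1. The log2 fold change was -0.66 (SE 0.36, 95% interval -1.51 to 0.19, edgeR adjusted p = 0.512), and both 0 and the value of Prelp lay inside the interval. Without Lama4-/- replicate 2 it was -1.06 (edgeR unadjusted p = 0.0158). Across the 6 libraries Pearson's r of log2(CPM + 1) between Fmod and Prelp was 0.952, the highest of the 45 pairs of members. The libraries share these groups, depths and amplification, and with 6 of them such a value is only a description.

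Both genes were read beside the chondrocyte markers. Those markers summed to 87571, 136013 and 95592 CPM in wild type replicates 1 to 3 and to 61208, 118697 and 63888 CPM in Lama4-/- replicates 1 to 3. Fmod and Prelp were highest in wild type replicate 2, which was also highest in the markers, and lowest in Lama4-/- replicates 1 and 3, which were also lowest in the markers. Within Lama4-/-, replicate 2 was the highest library for Fmod, for Prelp and for the marker sum. The order did not match throughout. The marker sum of Lama4-/- replicate 2 was above those of wild type replicates 1 and 3. Its Fmod (4904 CPM) and Prelp (1828 CPM) were nonetheless below those of wild type replicate 3 (6059.8 and 2755 CPM). Col2a1 made up most of the sum, at 48161 to 106128 CPM. Whether the share of cartilage-like cells carries the difference in Fmod and Prelp was not tested.

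**Figure D2:**
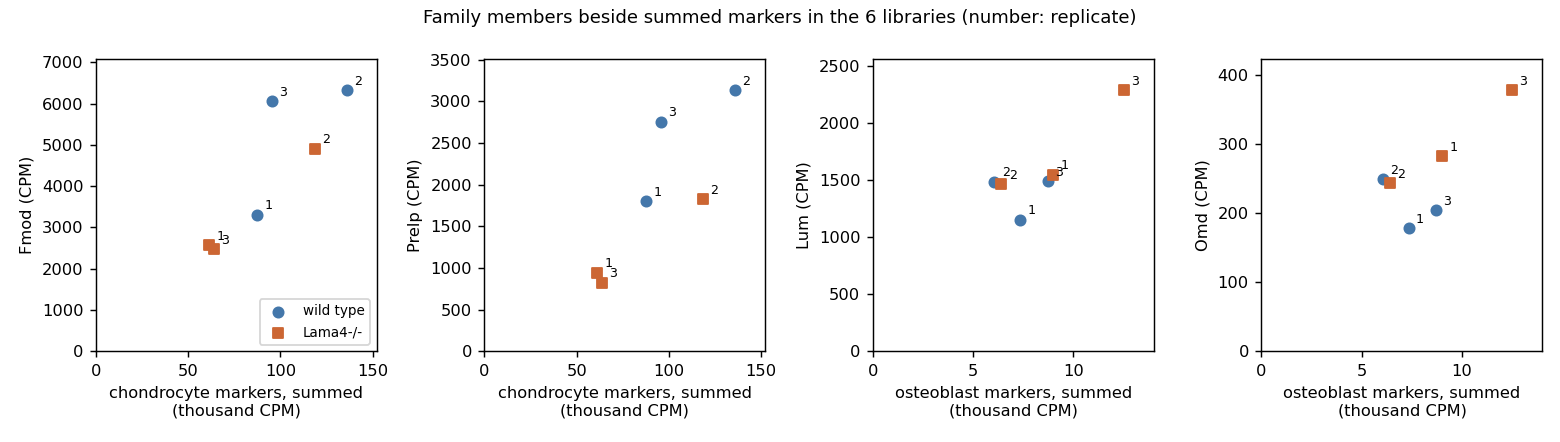
Level of Fmod and Prelp (CPM) against the summed chondrocyte markers, and of Lum and Omd against the summed osteoblast markers (horizontal axes, in units of 1000 CPM), for wild type (circles) and Lama4-/- (squares) libraries numbered by replicate. Wild type replicate 2 is highest and Lama4-/- replicates 1 and 3 lowest in both left panels, and Lama4-/- replicate 3 is highest in both right panels.

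Lum and Omd, also of class II, had positive values. Omd, a proteoglycan of mineralised bone matrix, was at 178, 248 and 204 CPM in wild type and 282, 243 and 378 in Lama4-/-. Only Lama4-/- replicate 2 lay inside the wild type range. The means were 210 ± 35.8 and 301 ± 69.3 CPM. The log2 fold change was 0.52 (SE 0.23, 95% interval -0.01 to 1.05), an unadjusted p of 0.0551 and an adjusted p of 0.402 in edgeR. DESeq2 gave an unadjusted p of 0.0429 and an adjusted p of 0.266, and the authors' deposited table lists 0.0429 and 0.221. Of 16 alternatives, 6 gave Omd an unadjusted p under 0.05 and 0 an adjusted one. Lum, which carries keratan sulfate and regulates fibril thickness, was at 1151, 1483 and 1488 CPM in wild type and 1544, 1465 and 2286 in Lama4-/-. Its log2 fold change was 0.36 (SE 0.24, 95% interval -0.19 to 0.91, edgeR adjusted p = 0.585), and Lama4-/- replicate 2 again lay inside the wild type range. Lum and Omd had an r of 0.933 over the 6 libraries although they lie on different chromosomes, and both were highest in Lama4-/- replicate 3. The osteoblast markers summed to 7357, 6071 and 8728 CPM in wild type replicates 1 to 3 and 9009.9, 6418 and 12530.3 CPM in Lama4-/- replicates 1 to 3, likewise highest in that library. Bglap and Ibsp made up most of that sum. Bglap, Ibsp and Dmp1 had positive log2 fold changes, while Runx2 (-1.29), Sp7, Alpl and Phex had negative ones, with a list median of -0.06. The part of osteoblasts in the levels of Lum and Omd was not tested. Without Lama4-/- replicate 3 the log2 fold change was 0.32 for Omd and 0.13 for Lum.

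Kera, the remaining member of class II, varied more within a genotype than between them. It was at 26.4, 14.4 and 106 CPM in wild type and 75.9, 19.3 and 44.4 CPM in Lama4-/-, resting on 84 counts in wild type replicate 2. The coefficient of variation was 102% in wild type, against 8.82% for Bgn. The log2 fold change of -0.08 had a 95% interval of -1.88 to 1.72. Without wild type replicate 3 it was 1.18. The tendon markers Scx, Tnmd, Mkx and Thbs4, genes of a tissue that also makes Kera, summed to 500.4, 332 and 1201 CPM in wild type and 606, 498 and 221 in Lama4-/-. Wild type replicate 3 was highest and wild type replicate 2 was low in both, with Lama4-/- replicate 3 lowest in the marker sum but not in Kera. Thbs4 made up most of the sum, at 148 to 1032 CPM, with a log2 fold change of -0.84. Scx, Tnmd and Mkx had positive log2 fold changes. Scx and Tnmd were lowest in wild type replicate 2, as Kera was, and Mkx in Lama4-/- replicate 1. The part of tendon cells in the level of Kera was not tested.

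Of class I, decorin was at 3726, 2518 and 5239.5 CPM in wild type and 5015, 4030.3 and 5074 in Lama4-/-. Wild type replicate 2 was lowest and wild type replicate 3 was highest of all 6, so the Lama4-/- values lay within the wild type range. The log2 fold change was 0.30 (SE 0.29, 95% interval -0.38 to 0.97, edgeR adjusted p = 0.730). It was 0.07 without wild type replicate 2 and 0.60 without wild type replicate 3. Dcn was the member whose value moved most when the trend with transcript length was removed, to 0.68. Its longest annotated transcript, at 4692 bases, is the longest of the family, and genes in the same length decile had a median log2 fold change of -0.38. Gene counts do not show which isoform was counted.

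Biglycan was the steadiest member and the only one of 10 whose groups did not overlap, where 22.3% of all tested genes had groups that did not, 12% lower and 10.3% higher in Lama4-/-. It was at 2389, 2531 and 2835 CPM in wild type and 1952, 2261 and 2265 CPM in Lama4-/-. The gap between the lowest wild type and the highest Lama4-/- library was small beside the spread within either group. The log2 fold change was -0.26 (SE 0.18, 95% interval -0.68 to 0.16, edgeR adjusted p = 0.611), so a fall of as much as 0.68 on the log2 scale lay inside the interval. Asporin, which can bind TGF-beta, ran from 95.6 to 139 CPM in wild type and from 68.2 to 102 in Lama4-/-, a log2 fold change of -0.40 (SE 0.24, edgeR adjusted p = 0.542). It was -0.21 without wild type replicate 3 and -0.26 without Lama4-/- replicate 1. Bgn and Aspn had an r of 0.926.

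In class III the 2 genes differed in sign. Ogn was at 169, 179.6 and 277 CPM in wild type and 144, 181 and 99.1 CPM in Lama4-/-, a log2 fold change of -0.56 (SE 0.29, 95% interval -1.24 to 0.12, edgeR adjusted p = 0.479). Wild type replicate 3 was the highest library, and without it the log2 fold change was -0.30. Epyc, a gene of growth plate cartilage, was at 337, 409 and 375 CPM in wild type and 306, 636 and 379.7 CPM in Lama4-/-. Its log2 fold change of 0.24 (95% interval -0.42 to 0.90) rested on Lama4-/- replicate 2, without which it was -0.13, and was 0.45 without Lama4-/- replicate 1. The cartilage matrix gene Matn1 was also highest in that library, at 320 CPM against 54.3 to 153 in the other 5. It was picked for its correlation with Epyc over these same libraries, so that match is not independent. Of the other 8 chondrocyte markers, Cnmd was highest in that library. Col2a1, Matn3, Hapln1 and Col9a2 were higher there than in every library except wild type replicate 2. Acan, Sox9 and Col9a1 were lower there than in any wild type library but higher than in Lama4-/- replicates 1 and 3. The part of cartilage-like cells in the level of Epyc was not tested.

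**Figure D3:**
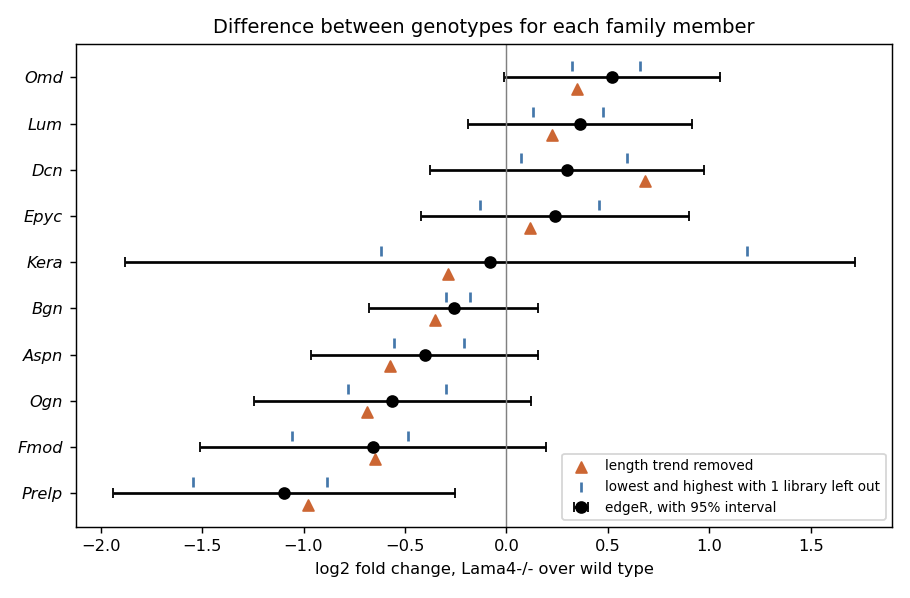
Log2 fold change of Lama4-/- over wild type for each member (circles, with 95% intervals from edgeR), with the value after removal of the length trend (triangles) and the lowest and highest value with 1 library left out (ticks). Only the interval of Prelp lies wholly on one side of 0, and removal of the length trend moves Dcn most.

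The differences also depended on transcript length. Over all tested genes the log2 fold change fell with the longest annotated transcript (Spearman's rho across genes -0.46; genes are not independent replicates), from a median of 0.34 in the decile of shortest genes to -0.92 in the decile of longest. Members lay in deciles 4 to 8, with transcripts of 2249 to 4692 bases. With the trend removed, 6 members were still negative and 4 positive, Prelp was at -0.98 (edgeR unadjusted p = 0.0161, a threshold of 0.05 that 8.02% of all tested genes then passed) and Fmod at -0.65. Ogn was at -0.69, Aspn at -0.57 and Bgn at -0.35. On the positive side Omd was then at 0.35, Lum at 0.23 and Epyc at 0.12, each smaller than before, and Kera went from -0.08 to -0.29.

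The make-up of the family differed more between libraries than its sum. Fmod took 25.1%, 37.3% and 31.1% of the family counts in wild type and 19.9%, 31.3% and 17.7% in Lama4-/-. Dcn took 28.3%, 14.9% and 26.9% in wild type and 38.9%, 25.8% and 36.5% in Lama4-/-. Both overlapped between genotypes, in opposite directions. Prelp took 13.7% to 18.5% in wild type and 5.90% to 11.7% in Lama4-/-, Lum 7.64% to 8.76% and 9.36% to 16.4%, and Omd 1.05% to 1.47% and 1.55% to 2.71%, with no overlap in any of these 3. Of all tested genes, 20% had counts relative to the family sum that did not overlap, so 3 of 10 is not far from that background. These shares need no scaling between libraries, but they are tied to each other since they add up to the whole.

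**Figure D4:**
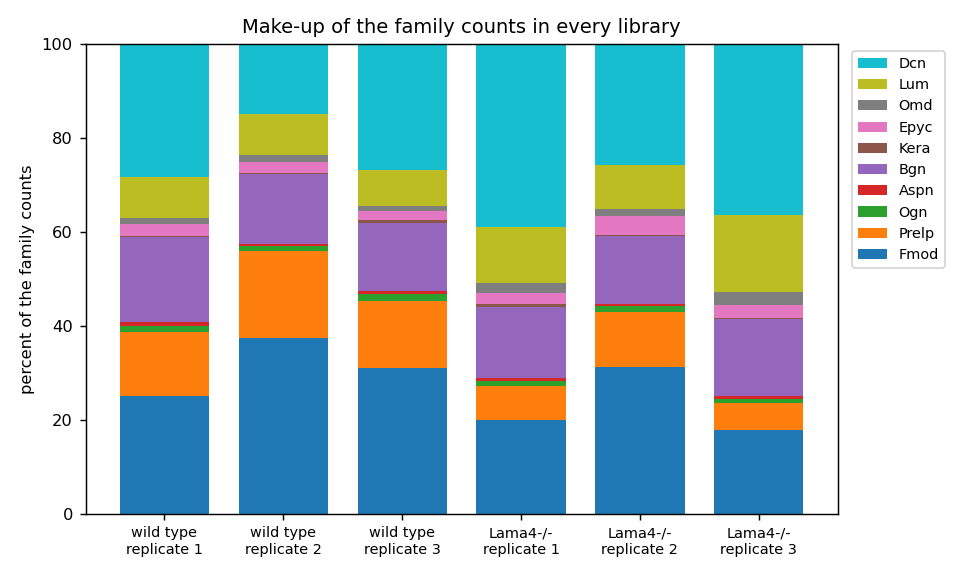
Share of the family counts taken by each of the 10 members (stacked bars, percent) in the 6 libraries. Fmod and Prelp at the bottom take less, and Dcn, Lum and Omd at the top take more, in Lama4-/- replicates 1 and 3 than in any wild type library, and Lama4-/- replicate 2 lies nearer to wild type.

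Neighbours on a chromosome had correlations over the 6 libraries from strongly negative to strongly positive. On chromosome 1 Prelp and Fmod had the r of 0.952 given above, and Optc and Prelp had 0.445. On chromosome 10 the neighbours Dcn and Lum had an r of 0.397, Lum and Kera 0.233, and Kera and Epyc -0.54. On chromosome 13 Aspn and Omd had an r of -0.35, and Omd and Ogn, whose start sites are 25.6 kb apart, had an r of -0.78, the lowest of the 45 pairs. Members that are not neighbours also reached high values, as Lum and Omd (0.933) and Bgn and Aspn (0.926) did. Ecm2, the first gene of that row, was at 56.1 ± 11.3 CPM in wild type and 45.4 ± 21.1 in Lama4-/-.

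**Figure D5:**
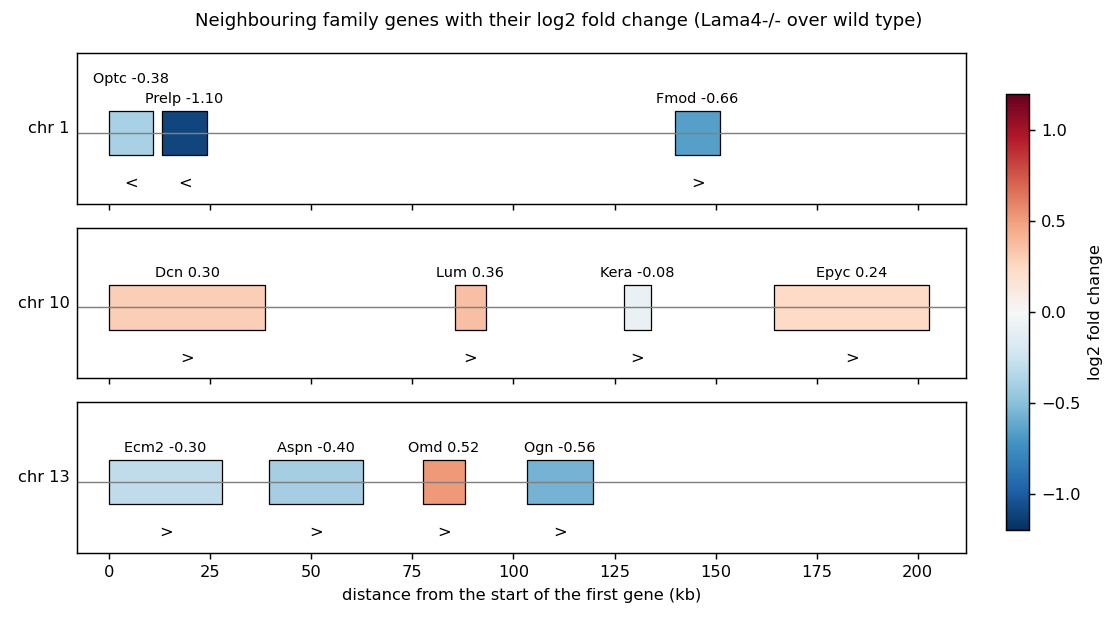
The 3 groups of neighbouring family genes drawn to scale (distance in kb from the start of the first gene), coloured and labelled by log2 fold change of Lama4-/- over wild type, with > for the plus and < for the minus strand. Prelp and Fmod are both negative on chromosome 1, while Omd is positive between the negative Aspn and Ogn on chromosome 13.

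Genes with the profile most like the leading member of each class were sought among 10648 tested genes of at least 5 CPM. For Dcn they were Copg2 (r = 0.989), 2310009A05Rik (0.989) and Eef1d (0.987), for Fmod they were Plekha7 (0.992), Pcca (0.991) and Dnase2a (0.987), and for Epyc they were Penk (0.970), Matn1 (0.961) and Smpdl3b (0.959). Over only 6 libraries many genes reach such values: 94 genes had an r above 0.9 with Dcn, 186 with Fmod and 32 with Epyc. Plekha7 was listed at 0 in Lama4-/- replicates 1 and 3, the libraries with the lowest Fmod. That match follows from its choice by correlation with Fmod, and Plekha7 averaged only 10.4 CPM in wild type and 2.01 in Lama4-/-.

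Other genes of the small leucine-rich family were read from a list of 8, of which 7 were tested and 0 reached an unadjusted p under 0.05. Chad, chondroadherin of cartilage, was the most abundant at 5414 ± 2917 CPM in wild type and 4584 ± 496 in Lama4-/-. Chadl was at 509 ± 263 and 469 ± 139 CPM, and Podnl1 at 72.2 ± 30.2 and 73.9 ± 33.7. Podn was at 10.1 ± 9.94 and 3.11 ± 2.87, Tsku at 4.12 ± 4.04 and 5.51 ± 4.697, and Optc, the neighbour of Prelp, at 1.42 ± 0.652 and 1.10 ± 0.942. Nyx had 2.43 ± 2.14 CPM in wild type and 0 counts in Lama4-/-, too few for the test. The median log2 fold change of the 7 was -0.24.

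The enzymes that build the sugar chains of the family gave 3 genes at an unadjusted p under 0.05, all lower in Lama4-/- and none past the edgeR adjustment; DESeq2 called Xylt1 and Chst11. Of all tested genes, 12.8% reached that threshold in either direction and 8.34% were lower, and DESeq2 called 4.64%. The 3 genes among the 30 enzymes of the linker, chondroitin and keratan lists are thus near the background. Of 7 linker genes, Xylt1, which with Xylt2 starts chondroitin, dermatan and heparan chains, was at 218 ± 61.8 CPM in wild type and 59.7 ± 20.7 in Lama4-/-, a log2 fold change of -1.87 (SE 0.32, edgeR adjusted p = 0.237). It was the only linker gene at that threshold, and its value was -0.88 with the length trend removed. Of 16 chondroitin and dermatan sulfate genes, 13 had a negative value, with a median of -0.54, and 2 reached the threshold. These were the sulfotransferase gene Chst11 at 466 ± 155 against 218 ± 48.7 CPM, and the chain synthase gene Chsy3 at 56.1 ± 8.24 against 34.04 ± 8.05 CPM. With the length trend removed, their log2 fold changes went from -1.10 to -0.55 and from -0.72 to -0.33, and the median of the list to -0.22.

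Of 7 keratan sulfate genes 0 reached the threshold. The most abundant, B4galt1, which adds galactose to the chain, was at 55.8 ± 10.6 CPM in wild type and 46.98 ± 11.01 in Lama4-/-. Among 8 genes of sulfate supply and tyrosine sulfation 1 reached it, on the higher side. This was Slc35b2, the transporter that brings the sulfate donor into the Golgi, at 247 ± 32.96 against 384 ± 42.8 CPM (log2 fold change 0.64, SE 0.18, edgeR adjusted p = 0.255, DESeq2 adjusted p = 0.0370), and its groups did not overlap. Of all tested genes, 4.45% were higher at that threshold and 10.3% were higher without overlap, and DESeq2 called 4.64% of genes. With the length trend removed, Slc35b2 was at 0.48.

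Fibrillar collagens are the main binding partners of the family. Of 10 chains 4 reached an unadjusted p under 0.05, all lower in Lama4-/-, where 8.34% of all tested genes were lower at that threshold. Col11a1, a minor chain of cartilage fibrils, had a log2 fold change of -1.37 (SE 0.27), and Col12a1, a fibril-associated collagen, one of -1.33 (SE 0.30), both with an edgeR adjusted p of 0.237 and both called by DESeq2, which called 4.64% of genes. With the length trend removed they were at -0.50 and -0.15, and 0 of the 10 chains reached the threshold. The abundant chains Col1a1 (38825 ± 6622 against 43832 ± 25134 CPM) and Col1a2 (58745 ± 17145 against 56107 ± 21497 CPM) overlapped between genotypes.

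Of 12 tested genes for receptors and ligands that bind the family, 5 reached the threshold, all lower in Lama4-/- (8.34% of all tested genes were), and DESeq2 called 4 (Egfr, Igf1r, Lrp1 and Tgfb2), against 4.64% of all genes. The growth factor receptor Igf1r was at 41.97 ± 16.4 against 10.6 ± 4.23 CPM, and Lrp1, an endocytic receptor that takes up decorin, at 807 ± 316 against 333 ± 71.7 CPM. Their log2 fold changes of -1.99 and -1.28 went to -0.76 and 0.04 with the length trend removed, where 1 of the 12 reached the threshold. Of 9 tested proteases that cut family members, 1 reached it. Adamts5 was at 141 ± 77.1 CPM in wild type and 52.4 ± 1.75 in Lama4-/-. Its log2 fold change was -1.43 (DESeq2 adjusted p = 0.0394) and became -0.21 once the length trend was taken out. Bmp1, which trims the propeptide of biglycan, was at 692 ± 84.1 against 775 ± 188 CPM.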

How the data were processed

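Per the labels' protocols, RNA was amplified as full-length cDNA with a SMART-Seq v4 kit, made into Nextera XT libraries and read as single ends; the kit does not mark strand. The submitters' processing notes name STAR 2.6.1d, featureCounts and DESeq2; their settings were not found in the labels. The deposited table holds whole-number gene counts by the authors under a heading that calls them normalized, and a deposited signal, those counts times a constant per library (0.708 to 1.98), under a heading that calls them raw. The counts were used. Per the file headers, the other columns are the authors' DESeq2 results: a shrunken log2 fold change with its standard error, the Wald statistic as a score, and the raw and adjusted p-value.

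Of the gene identifiers, 99.9% were found in GENCODE on GRCm38. Genes were filtered with filterByExpr by genotype (14465 kept), scaled with TMM and tested in edgeR 4.0.16 (R 4.3.3) by quasi-likelihood F test with robust moderation, 3 libraries against 3 with no covariate, at an adjusted p of 0.05 over all tested genes. The SE is the log2 fold change over the root of F, and intervals are at 95%. Same-genotype libraries all differed beyond counting noise, with a chi-square per gene of at least 42.6. DESeq2 1.42.0 and voom of limma 3.58.1 were alternatives, as were 2 other scalings, 2 other filters, no robust moderation, a replicate block, each library left out and a lowess offset (span 0.3) that removes each library's trend with transcript length. Scripts were tested on simulated counts.

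The members, gene lists and tests were chosen with earlier results of these data known. Named genes are the 10 members, Lama4, relatives of at least 1 CPM, and of each other list up to 2 genes with the smallest p in each direction among those under an unadjusted 0.05, or else the most abundant. Matn1 beside Epyc, other single marker genes, the gate genes, Col1a1, Col1a2 and Bmp1 were added after their values were seen.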

Additional observations from a re-analysis of the deposited data

How the results depend on the processing

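16 alternatives were run, and of the 160 values they gave for the log2 fold changes of the members, 153 kept their direction. Dcn, Bgn, Aspn, Fmod, Lum, Prelp, Omd and Ogn kept theirs in all 16. Kera turned positive with upper-quartile scaling (0.016), limma voom (0.072), the replicate block (0.23) and the block with the length trend removed (0.067), and ranged from -0.62 to 1.18 with 1 library left out. Epyc ranged from -0.13 to 0.45 with 1 library left out, negative only without Lama4-/- replicate 2. The cause was not tested.

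The number of members past an adjusted p of 0.05 was 0 in every alternative except DESeq2, where it was 1 (Prelp at -1.10), and 0 to 0 with 1 library left out. At an unadjusted p under 0.05, the replicate block with the length trend removed gave 5 members (Prelp, Fmod, Aspn, Bgn and Dcn). Of the 14465 genes tested there, 686 were higher and 519 lower at that threshold. Without Lama4-/- replicate 2 it was 4 members, where 606 of 15402 genes were higher and 1770 lower. It was 0 without Lama4-/- replicate 1 (461 higher and 1205 lower of 15462) or replicate 3 (451 and 1279 of 15511). The other alternatives gave 1 or 2 members, drawn from Prelp, Omd and Fmod. Over all genes, the 1 call became 12 with no filter and 741 with DESeq2. It became 0 with upper-quartile scaling, limma voom, no robust moderation, the length trend removed, the replicate block and the block with the length trend removed, and was 0 to 1 with 1 library left out.

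Same-numbered libraries are not said to share a litter or day. The correlations of their deviations from the group means were 0.0337, 0.127 and 0.0554, so the numbers were not taken as pairs, although every library correlated best with its own number. The edgeR common dispersion was 0.393, and with 3 libraries a group the intervals of 9 of the 10 members held 0.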
